A study of Mus musculus with 2 samples.

Results

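The Ikaros family genes are the 5 mouse genes Ikzf1 to Ikzf5, chosen by name from the 21938 protein-coding genes of the annotation. Accessible chromatin around each gene was described in its territory, defined as the gene body plus 30 kb on each side. DNase-seq had been run on whole thymus of 2 B6CASTF1/J mice, both female and 25 days of age, with 1 library per mouse, called replicate 1 and replicate 2 after the biological replicate numbers of the labels. B6CASTF1/J mice are the first-generation offspring of C57BL/6J and CAST/EiJ parents. Both libraries formed 1 group with no treatment, genotype or age contrasted, so no test between conditions could be made. The labels name a separate mouse for each library but give both the same donor entry. In whole tissue, fewer cells with an open site and less opening per cell cannot be told apart, and no site can be assigned to a cell type.

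Ikaros proteins bind DNA through zinc fingers near the N-terminus and pair with each other through zinc fingers at the C-terminus. They recruit chromatin remodelling and histone deacetylase complexes, most prominently the NuRD complex, and can repress or sustain transcription of their targets. Ikzf1 encodes Ikaros, which is needed for normal lymphocyte development and whose loss leads to T-cell leukaemia in mice. Ikzf2 encodes Helios and Ikzf4 encodes Eos, both known from regulatory T cells. Ikzf3 encodes Aiolos, which is prominent in later B and T lymphocytes, and Ikzf5 encodes Pegasus, a more distant and broadly expressed relative. DNase I cuts accessible DNA, so a peak of cutting marks an open site. A footprint is a short protected stretch that a bound protein can leave. Binding was not measured here.

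The sites on which the results turn are shown first. For 4 genes the sequence is that of the replicate 1 peak with the highest deposited density, averaged as ranks over both libraries, among named peaks that overlapped between libraries and touched no untranslated region. For Ikzf5 it is the DNA between its start and the start of the neighbouring gene Acadsb. Letters are the mm10 reference, read 5′ to 3′, not the sequence of these mice, and capitals mark bases inside a footprint in both libraries.
Ikzf1 upstream site, chr11:11657181-11657400, plus strand: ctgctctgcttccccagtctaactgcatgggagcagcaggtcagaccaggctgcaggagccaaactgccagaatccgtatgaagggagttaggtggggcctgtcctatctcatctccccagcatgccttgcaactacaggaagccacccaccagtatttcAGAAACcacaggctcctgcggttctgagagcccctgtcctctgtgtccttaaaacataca
Ikzf2 promoter site, chr1:69687501-69687740, plus strand: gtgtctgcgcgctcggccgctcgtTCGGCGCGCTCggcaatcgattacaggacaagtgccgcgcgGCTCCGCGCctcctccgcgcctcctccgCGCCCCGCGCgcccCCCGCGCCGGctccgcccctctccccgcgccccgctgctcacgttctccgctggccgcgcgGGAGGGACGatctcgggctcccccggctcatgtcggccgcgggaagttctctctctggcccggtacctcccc
Ikzf3 downstream site, chr11:98457781-98457980, plus strand: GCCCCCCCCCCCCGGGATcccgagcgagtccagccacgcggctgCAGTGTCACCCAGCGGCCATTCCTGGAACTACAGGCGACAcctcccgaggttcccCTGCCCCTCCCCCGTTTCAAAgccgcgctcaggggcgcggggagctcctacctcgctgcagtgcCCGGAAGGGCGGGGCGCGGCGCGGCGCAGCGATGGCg
Ikzf4 intronic site, chr10:128637081-128637300, plus strand: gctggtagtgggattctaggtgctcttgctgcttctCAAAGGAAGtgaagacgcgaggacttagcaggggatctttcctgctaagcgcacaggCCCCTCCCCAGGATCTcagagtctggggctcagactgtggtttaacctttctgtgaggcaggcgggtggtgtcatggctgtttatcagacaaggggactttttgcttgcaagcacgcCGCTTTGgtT
Ikzf5 to Acadsb interval, chr7:131410522-131410600, minus strand: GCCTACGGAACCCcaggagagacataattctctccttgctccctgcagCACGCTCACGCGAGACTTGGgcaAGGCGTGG
The Ikzf3 site was the most protected of these, with 115 of its 200 bases inside footprints of both libraries. The Ikzf2 site had 49 such bases of 240, and its 41 CpG dinucleotides were the most among the 5 sequences. The Ikzf4 site had 33 of 220 and the Ikzf5 interval 41 of 79, whereas the Ikzf1 site had only 6 of 220.

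Replicate 1 was the richer library throughout, with 127552 peaks against 67270 in replicate 2, and 363775 footprints against 203939. Read depth was not stated, so this difference in yield, a ratio of 1.90 for peaks, bears on every count below. Known thymocyte genes marked the tissue: 10 of 10 had a promoter peak in both libraries. Of all protein-coding genes, 61.7% had 1 in replicate 1 and 55.1% in replicate 2. Of the markers of other cells, replicate 1 and replicate 2 had promoter peaks at 2 and 0 of 5 B-cell genes, 3 and 2 of 5 myeloid genes, 1 and 0 of 5 thymic epithelial genes and 1 and 1 of 5 erythroid genes. Of the 5 liver genes, none had a promoter peak in either library.

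Each of the 5 Ikaros family genes was open at its promoter, with a peak that touched the window from 1 kb before to 1 kb after the gene start, in both libraries. Among protein-coding genes as a whole 61.7% met this rule in replicate 1 and 55.1% in replicate 2, so an open promoter was common and 5 of 5 sets the family little apart. With 500 bp on either side the members again numbered 5 and 5 of 5, against 59.2% and 52.8% of all genes. With 2500 bp they numbered 5 and 5, against 66.2% and 58.2%, and with 1 kb around any transcript start 5 and 5, against 66.5% and 59.7%. With the shorter deposited peak lists, again within 1 kb of the gene start, they numbered 5 and 4, against 57.5% and 51.1%. Ikzf1 was the gene without such a peak in replicate 2. Its densest start peak of the main list, with its midpoint 1158 bp downstream, lies outside this window. The territories differed far more. They held 132 peaks in replicate 1 and 77 in replicate 2 in all, which was 0.103% and 0.114% of each list. Some peaks overlap or lie inside another peak of the same list and were counted apart, so peak counts are not counts of distinct sites.

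Per length, Ikzf1 and Ikzf3 had the most open sites of the family, Ikzf4 was intermediate, and Ikzf2 and Ikzf5 had the fewest. The Ikzf1 territory (gene at chr11:11685003-11772926, plus strand) held 48 peaks in replicate 1 and 29 in replicate 2, or 38.5 ± 13.4 (SD, n = 2). Per length this was 3.24 and 1.96 peaks per 10 kb, at percentiles 96.3 and 95.6 among all protein-coding genes. The Ikzf3 territory (gene at chr11:98464902-98546031, minus strand) held 46 and 25 peaks, 35.5 ± 14.8, or 3.26 and 1.77 per 10 kb, at percentiles 96.4 and 93.9. These chromosome 11 genes thus ranked above percentile 90 in each library, and which of them stood first changed with the library. Among the genes of similar territory length (the same of 10 length classes), Ikzf1 was at percentiles 99.3 and 99.1 and Ikzf3 at 99.1 and 97.9.

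The Ikzf4 territory (gene at chr10:128630843-128645991, minus strand) held 14 peaks in replicate 1 and 9 in replicate 2, 11.5 ± 3.54 (SD, n = 2), or 1.86 and 1.20 per 10 kb. The Ikzf2 territory (gene at chr1:69531214-69687245, minus strand) held 19 and 10 peaks, 14.5 ± 6.36, or 0.879 and 0.463 per 10 kb. The Ikzf5 territory (gene at chr7:131388652-131410521, minus strand) held 5 and 4 peaks, 4.50 ± 0.707, or 0.611 and 0.489 per 10 kb. Ikzf2 has the longest gene of the family, 156.0 kb. Per 10 kb it stood near the middle of all genes, at percentiles 51.9 and 52.9, and among genes of similar territory length above the middle, at 68.5 and 71.4. Ikzf4 stood at percentiles 83.2 and 84.8 of all genes and at 77.0 and 79.2 of its length class. Ikzf5 stood at 38.9 and 54.9 of all genes and at 28.9 and 46.0 of its length class.

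In the order of mean peaks per 10 kb, Ikzf1 (2.60 ± 0.908) and Ikzf3 (2.52 ± 1.05) differed by less than their spread. Ikzf4 (1.53 ± 0.470) was below Ikzf3 by less than the SD of Ikzf3, although it was the lower of the pair in each library, while it was above Ikzf2 (0.671 ± 0.295) by more than the SD of either. Ikzf2 and Ikzf5 (0.550 ± 0.0864) again differed by less than the spread of Ikzf2 (SD, n = 2 each). These SDs include the difference in yield between the libraries, which all genes share. The family median was 1.86 and 1.20 peaks per 10 kb in replicates 1 and 2, against 0.836 and 0.424 over all protein-coding genes. At least 1 peak per 10 kb was reached by 3 of 5 members in each library, Ikzf1, Ikzf3 and Ikzf4, against 42.8% and 20.9% of all genes.

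**Figure D1:**
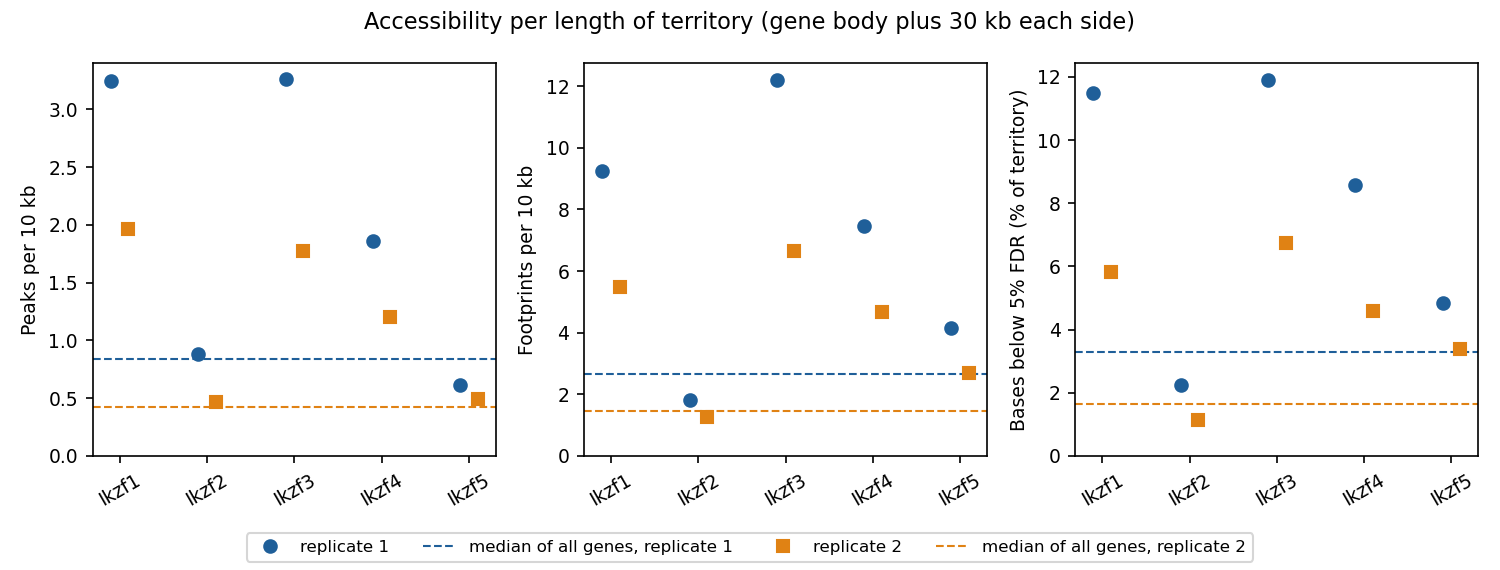
Density of open sites at the 5 Ikaros family genes. Each panel gives 1 measure per territory (peaks per 10 kb, footprints per 10 kb, or the percent of bases with a false discovery rate below 0.05) on the y axis, with 1 point per library and a dashed line per library for the median of all protein-coding genes. Ikzf1 and Ikzf3 stand highest in all 3 panels, and Ikzf2 is lowest for footprints and bases.

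Ikzf3 and Ikzf1 also led for footprints per territory, here with Ikzf3 first in both libraries. The Ikzf3 territory held the most, 172 in replicate 1 and 94 in replicate 2, or 12.2 and 6.66 per 10 kb. That of Ikzf1 held 137 and 81, or 9.26 and 5.48 per 10 kb. In the gene bodies alone, 87.9 kb at Ikzf1 and 81.1 kb at Ikzf3, the order was reversed. There Ikzf1 held 107 and 56 footprints and Ikzf3 held 73 and 41, so the lead of Ikzf3 came from its flanks. Ikzf4 had 56 and 35 footprints (7.45 and 4.66 per 10 kb) and Ikzf5 had 34 and 22 (4.15 and 2.69 per 10 kb). Ikzf2 had 39 and 27, which at 1.81 and 1.25 per 10 kb was the lowest density of the family in both libraries and below the median of all genes, 2.66 and 1.45. The Ikzf5 territory ranked higher for footprints than for peaks, at percentiles 66.9 and 70.0 among all genes for footprints per 10 kb. Only 4 of these footprints in replicate 1 and 2 in replicate 2 lay in the gene body. The 10 kb bins with the starts of Pstk and 2310057M21Rik held 11 and 13 in replicate 1, and 6 and 10 in replicate 2. Of the footprints in the territory, 18 of 34 (52.9%) in replicate 1 and 18 of 22 (81.8%) in replicate 2 lay inside a peak of their own library. Over all footprints these shares were 82.8% and 83.3%.

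The share of bases with a false discovery rate of cutting below 0.05, which does not depend on how peaks were delimited, gave a similar picture. It was 11.9% in replicate 1 and 6.74% in replicate 2 at Ikzf3, and 11.5% and 5.81% at Ikzf1. It was 8.59% and 4.58% at Ikzf4, and 4.83% and 3.39% at Ikzf5. It was lowest at Ikzf2, 2.26% and 1.14%, against a median over all genes of 3.28% and 1.65%. Among all genes Ikzf3 was at percentiles 94.4 and 93.7 for this share and Ikzf2 at 38.8 and 40.6. In gene bodies alone Ikzf1 had more such bases, 13160 in replicate 1 and 6079 in replicate 2, than Ikzf3, with 7281 and 3974.

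**Figure D2:**
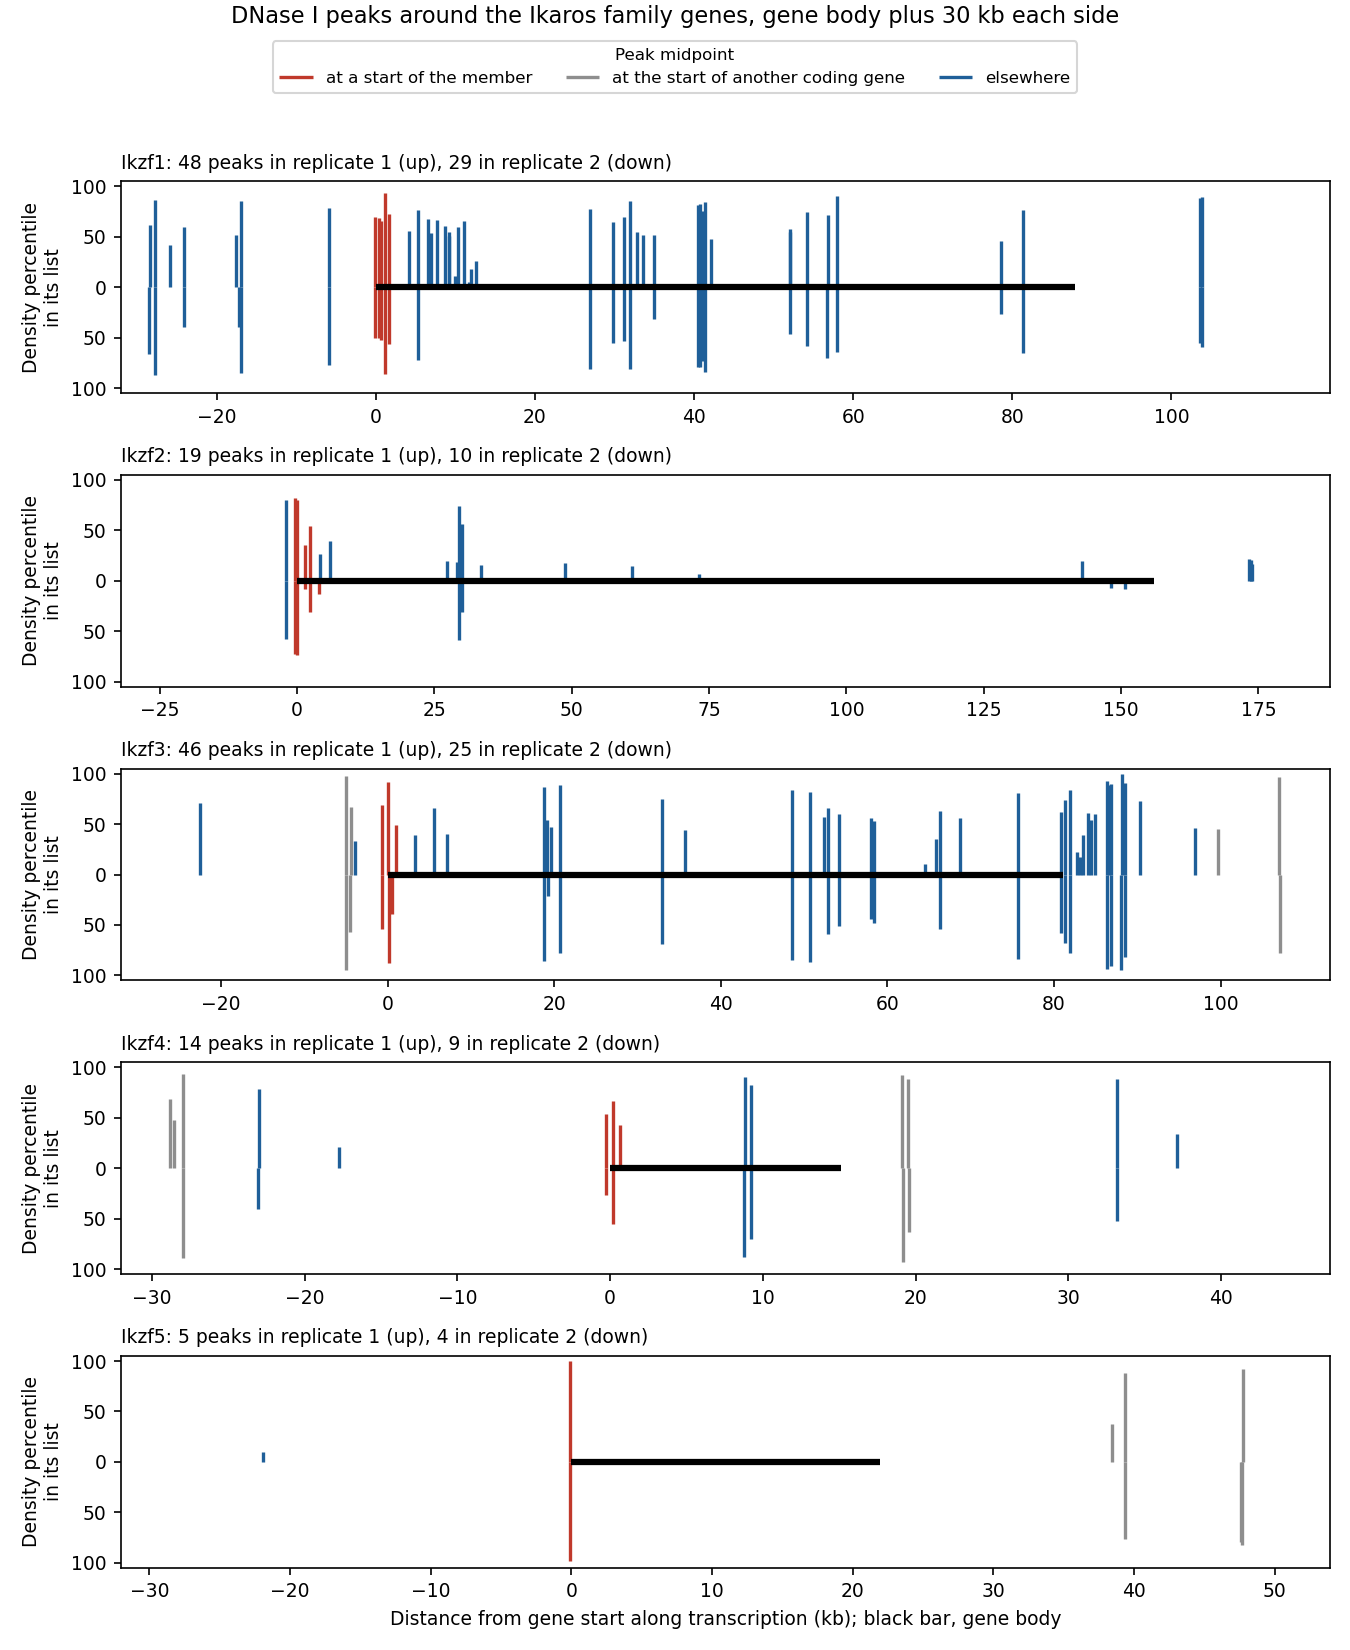
Peaks around the 5 genes. The x axis is distance from the gene start along transcription in kb, and the y axis is the percentile of each peak's deposited density within its library's list, with replicate 1 drawn up and replicate 2 down. Red lines are peaks at a start of the gene itself, grey lines peaks at the start of another protein-coding gene and blue lines all others. Ikzf1 and Ikzf3 are dotted with sites along their length, whereas Ikzf2 has long empty stretches and the Ikzf5 gene body is empty.

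Peaks are described from here on by density percentile, the rank of the authors' own density value within the library's list, where 100 is the densest. At Ikzf1 most peaks lay in introns, 34 in replicate 1 and 16 in replicate 2, with 5 and 5 within 1 kb of a coding transcript start. Its densest start peak, and its densest peak of all in replicate 1, chr11:11686061-11686260, was delimited identically in both libraries, at percentiles 93.6 and 85.6. It lay 1158 bp downstream of the annotated gene start and contained the starts of 2 coding transcripts, at 11686213 and 11686229. All 3 of its replicate 1 footprints were met by footprints of replicate 2. The peak at the gene start itself (chr11:11684701-11685000 in replicate 1), was weaker, at percentiles 70.0 and 49.9. The other start peaks were at 68.9, 65.2 and 72.3 in replicate 1 and at 50.6, 52.8 and 56.3 in replicate 2. Among the start peaks of Ikzf1 the densest in both libraries was thus the internal one, not the most upstream one. In replicate 2 the upstream site printed above was denser than any start peak.

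Away from its starts, the densest Ikzf1 site common to both libraries was the upstream site printed above, 27712 bp before the gene start, at percentiles 86.4 and 86.7. The next was also upstream, chr11:11667981-11668220, 16902 bp before the gene start, at 85.7 and 85.4. Then came 2 intronic sites, chr11:11726261-11726480 at 84.3 and 83.7 and chr11:11716881-11717060 at 85.8 and 81.1. The intronic site chr11:11726261-11726480 was the last of 4 neighbouring peaks between 40448 and 41368 bp into the gene, each of them overlapped by a peak of replicate 2. These 4 sites ranked alike in both libraries. No other protein-coding gene begins in the Ikzf1 territory, although the 3′ end of Fignl1, a gene of DNA repair, reaches into it. Gm11999, annotated as a processed transcript (chr11:11642203-11685400, minus strand), also begins there and had a promoter peak in both libraries. Its start lies inside the peak chr11:11685241-11685540 of replicate 1, classed here as an Ikzf1 start peak. Both upstream sites lie within Gm11999, and which gene these sites serve was not tested.

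The libraries parted over 1 stretch of the Ikzf1 gene. Between 4 and 13 kb downstream of the gene start (chr11:11689003-11698002), an interval picked out after the values were seen, replicate 1 had 15 peaks and replicate 2 had 1. Of the replicate 1 peaks, chr11:11694041-11694260 lies inside chr11:11694041-11694480. Bases below a false discovery rate of 0.05 numbered 5916 in replicate 1 and 599 in replicate 2, and footprints 47 and 4. The ratio of those bases, 9.88, compares with 1.40 in the rest of the territory and with 1.93 over the whole genome. At the stricter false discovery rate of 0.001 the bases numbered 4995 and 403, and the shorter peak lists had 12 and 2 peaks there. Outside the stretch Ikzf1 had 33 and 28 peaks. The excess of replicate 1 peaks at Ikzf1 was thus mostly in this stretch, and with 1 mouse per library the mouse and the library cannot be told apart. The antisense transcript Gm12000, of unknown role, lies within it and had a promoter peak in replicate 1 alone.

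**Figure D3:**
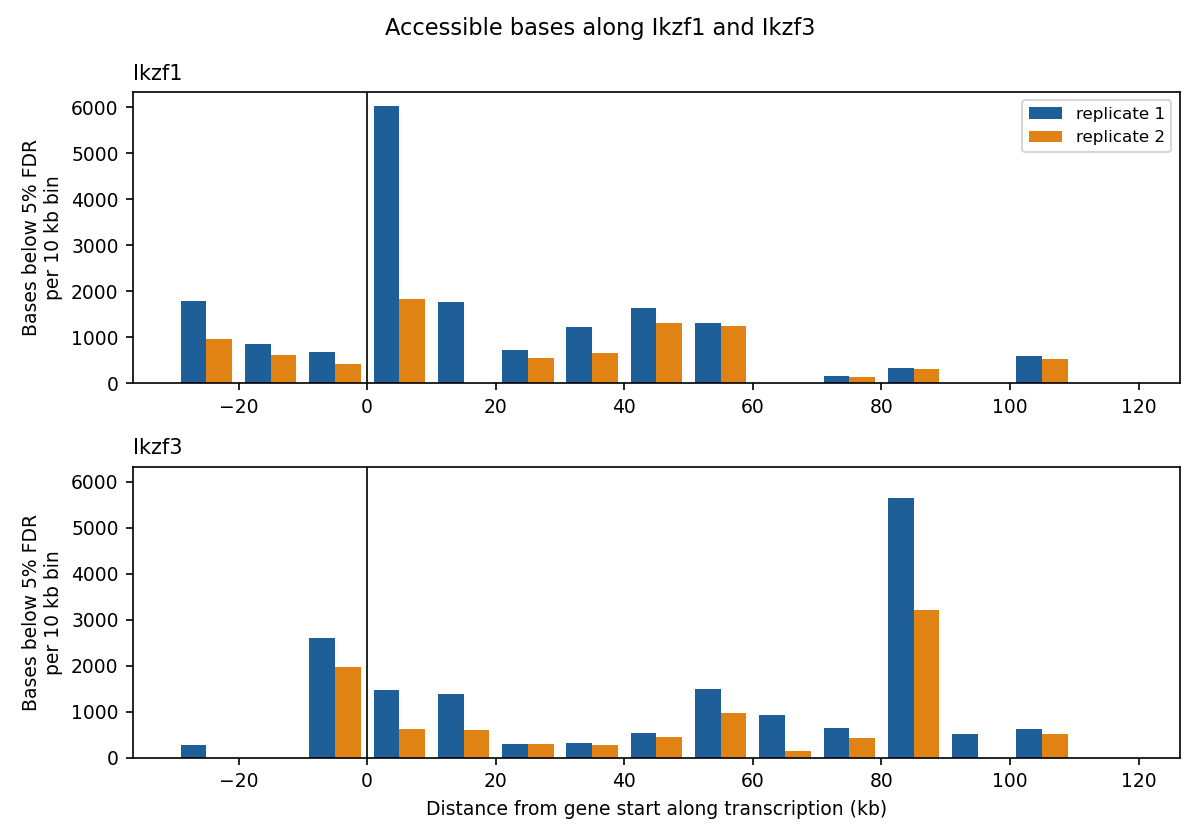
Bases with a false discovery rate below 0.05 in 10 kb bins along the Ikzf1 and Ikzf3 territories. The x axis is distance from the gene start along transcription in kb, the y axis the number of such bases in the bin, and the bars are the libraries, with a vertical line at the gene start. The bin from 0 to 10 kb at Ikzf1 holds 6029 bases in replicate 1 and 1842 in replicate 2, and the bin from 80 to 90 kb at Ikzf3, mostly past the gene end, holds 5643 and 3213.

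Ikzf3 had a cluster of dense sites past its own 3′ end. In the 10 kb bin from 80 to 90 kb along transcription, replicate 1 had 14 peaks and replicate 2 had 7, of which 13 and 6 were beyond the gene. In each library 3 of them were above percentile 90 by density. The downstream site printed above, 7.02 kb past the gene end, was at percentiles 99.3 and 94.8 and was the densest site of the territory by mean percentile, although in replicate 2 the Zpbp2 promoter peak described below, at 94.9, was just above it. It held 4 footprints in replicate 1 and 6 in replicate 2. Its neighbours chr11:98459581-98459780, at 93.2 and 93.4, and chr11:98459121-98459280, at 89.6 and 91.0, were also open in both libraries. This DNA lies between the 3′ ends of Ikzf3 and Grb7, a signalling adaptor gene transcribed towards it. The start of Grb7 is the nearest coding start to the downstream site, and which gene the site serves was not tested.

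At its own promoter Ikzf3 had a peak at percentiles 91.8 and 87.3 (chr11:98545821-98546140 in replicate 1). The start of its single coding transcript was 21 bp outside this peak in replicate 1 and inside the peak in replicate 2. A second upstream peak, chr11:98546641-98546900, was at 69.2 and 54.0. The promoter of Zpbp2, a gene of sperm formation that begins about 5 kb away in the opposite direction, had a denser peak, chr11:98550961-98551180, at 97.2 and 94.9. That peak had 7 footprints in each library, and all 7 of replicate 1 were met by footprints of replicate 2. Within the gene, 19 peaks of replicate 1 and 11 of replicate 2 were intronic. Of the other neighbours, Mien1 had a promoter peak in both libraries, while Grb7 and the receptor gene Erbb2 had 1 in replicate 1 alone.

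Ikzf2 was open chiefly at its promoter. The peaks chr1:69687501-69687740, printed above, and chr1:69687161-69687360, which holds the gene start, were at percentiles 82.1 and 80.2 in replicate 1 and at 72.1 and 73.0 in replicate 2. Another peak 1946 bp upstream, chr1:69689101-69689280, was at 80.4 and 58.1. In the 156.0 kb gene body, the densest site away from a start was intronic, chr1:69657601-69657760, at 74.1 and 58.4, with chr1:69657021-69657220 beside it at 56.5 and 30.8. The start peaks further into the gene, chr1:69684701-69684920 and chr1:69685773-69685960, were at 54.2 and 35.1 in replicate 1 and at 30.8 and 7.95 in replicate 2. No Ikzf2 peak reached percentile 90 by density in either library, and the median percentile of its peaks was 21.8 in replicate 1 and 30.8 in replicate 2. The widest peak-free stretch of its territory was 69.5 kb in replicate 1 and 118.0 kb in replicate 2. Of its peaks, 7 of 19 in replicate 1 and 7 of 10 in replicate 2 overlapped a peak of the other library. These were the lowest shares of the family in each library, and the shares over all peaks were 46.9% and 88.8%. No other protein-coding gene lies in its territory.

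At Ikzf4 the promoter was modest and the gene body held the stronger sites. The promoter peak chr10:128645701-128645900, which holds a coding transcript start, was at percentiles 66.7 and 55.3. It also holds the start of the long noncoding RNA gene Gm26876, at 128645884 on the plus strand. The peak upstream of it, chr10:128646161-128646400, was at 53.7 and 27.0. The intronic site printed above, 8800 bp into the gene, was at 90.6 and 88.3. Another peak close by, chr10:128636681-128636880, was at 82.3 and 70.5, and its midpoint was exonic in replicate 1 but intronic in replicate 2. The densest peaks of the territory belonged to the promoters of other genes. These were Rps26, a ribosomal protein gene, at 92.4 and 93.3, and Suox, which encodes sulfite oxidase, at 93.1 and 89.4. Of the 14 replicate 1 peaks 5 lay at these starts, as did 3 of the 9 in replicate 2. All 9 peaks of replicate 2 overlapped a peak of replicate 1.

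Ikzf5 had 1 very strong site, and it was shared with a neighbour. The starts of Ikzf5 and of Acadsb, which encodes a mitochondrial acyl-CoA dehydrogenase, face away from each other with 79 bases between them, printed above. A single peak, chr7:131410501-131410700 in replicate 1, covered this interval at percentiles 99.8 and 98.4, the highest of any member peak in each library. It had 4 footprints in replicate 1 and 3 in replicate 2. Its midpoint was closer to the start of Acadsb, so counting by nearest start would give Ikzf5 no peak at all. The gene body beyond the promoter had no peak, and the peak-free stretch that contains it spanned 38.3 kb in replicate 1 and 39.2 kb in replicate 2. The other strong peaks of the territory were at the starts of 2310057M21Rik, at 92.4 and 82.4, and of Pstk, a kinase gene of selenocysteine synthesis, at 88.5 and 76.0. The annotated model of Fgfr2 also spans the territory, with its start outside it.

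Sorted by position over the whole family, introns of the members held the most peaks, 64 of 132 (48.5%) in replicate 1 and 31 of 77 (40.3%) in replicate 2. Starts of the members held 16 and 16. The number of start peaks was therefore equal in the libraries while that of intronic peaks was not. The 3′ flank held 22 and 9, the 5′ flank 13 and 8, starts of other genes 12 and 9, and exons 5 and 4. The classes cover unequal lengths of DNA and were not counted over all peaks, so these shares do not show a preference for introns. Of the distinct coding starts, those inside a peak in replicates 1 and 2 numbered 2 and 3 of 5 at Ikzf1, 3 and 3 of 5 at Ikzf2, and 0 and 1 of 1 at Ikzf3. They numbered 1 and 1 of 3 at Ikzf4 and 1 and 3 of 6 at Ikzf5. The share of coding starts inside a peak was not computed over all genes.

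The members' promoters also differed in base composition, taken over 250 bases before to 50 after the gene start. Ikzf2 had 76% GC and 47 CpG dinucleotides, with an observed to expected CpG ratio of 1.14, at percentile 98.6 of 21931 promoters. Ikzf5 had 65% GC and 22 CpG, and Ikzf3 54.3% GC and 18 CpG. Ikzf1 and Ikzf4 had 7 and 6 CpG, below the median of 11, with GC contents of 56% and 57% close to the median of 55%. These values depend on the start chosen. The 150 bases before the internal Ikzf1 start at 11685925 had 76.7% GC and 21 CpG, and those before the single coding start of Ikzf3 had 78.7% GC and 24 CpG. The 150 bases before the Ikzf2 gene start had 80.7% GC and 27 CpG, while those before the Ikzf4 gene start had 53.3% GC and no CpG. At the gene starts, the most CpG-rich promoter, that of Ikzf2, was not the one with the densest promoter peak, that of Ikzf5.

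Taken over all densities, the share of family peaks that overlapped between the mice was above that of all peaks in each library, and no test was made. Of the 132 member peaks in replicate 1, 73 were met by a peak of replicate 2 (55.3%, 95% Wilson interval 46.8 to 63.5%), against 46.9% of all peaks. Of the 77 in replicate 2, 71 were met by a peak of replicate 1 (92.2%, 84.0 to 96.4%), against 88.8% of all. The intervals cover counting error only and treat each peak as independent. The value for all peaks lay just above the lower bound in replicate 1 and inside the interval in replicate 2. Peaks were clustered, with 14 unshared ones of replicate 1 in a single stretch of Ikzf1, so the intervals cannot decide whether the family differs from all peaks. Overlap went with density: in replicate 1, 43 of 43 member peaks above percentile 75 were shared, against 92.5% of all such peaks. From percentile 50 to 75, 28 of 49 were shared (57.1%), against 62.6%. From 25 to 50 it was 2 of 21 (9.52%), against 26.0%, and up to 25 it was 0 of 19, against 6.55%. In replicate 2, from the lowest band to the highest, the shares were 40%, 84.6%, 100% and 96.6%, against 61.9%, 95.5%, 98.5% and 99.4%. At like density the member share was thus the lower in most bands, from few peaks that are partly neighbours. The 14 unshared peaks of the Ikzf1 stretch described above all fall in the replicate 1 bands below percentile 75. In the highest band of replicate 2, the unshared peak, chr7:131362881-131362960 at Ikzf5, lies inside a larger peak that was shared.

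**Figure D4:**
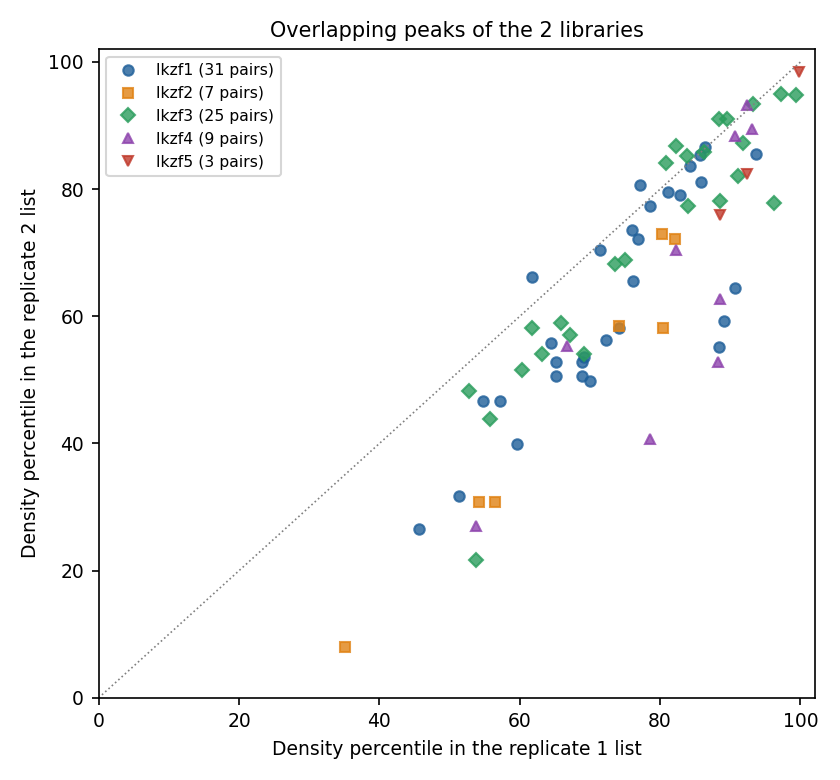
Density percentiles of overlapping peaks in the 5 territories. Each point is 1 pair of overlapping peaks, with its percentile in the replicate 1 list on the x axis and in the replicate 2 list on the y axis, coloured by gene, and the dotted line marks equal percentiles. The Ikzf5 promoter lies at the upper right corner, at 99.8 and 98.4, and the lists differ in length, so distance from the line shows no change in accessibility.

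Footprints recurred less than peaks did. Of the replicate 1 footprints in the territories, the share that overlapped a footprint of replicate 2 was 52.9% at Ikzf5, 46.4% at Ikzf4, 41.3% at Ikzf3, 32.8% at Ikzf1 and 30.8% at Ikzf2, against 35.7% of all footprints. In the other direction, for the footprints of replicate 2, the shares were 86.4%, 77.1%, 76.6%, 58.0% and 51.9% in the same order of genes, against 67.9% of all. The order of the genes was the same in both directions, with Ikzf1 and Ikzf2 below the level of all footprints. Both directions count largely the same overlaps, so the like order is not separate evidence. Inside overlapping peaks, footprints of replicate 1 that were met in replicate 2 numbered 39 of 77 at Ikzf1, 47 of 97 at Ikzf3, 18 of 29 at Ikzf4, 11 of 18 at Ikzf2 and 12 of 14 at Ikzf5.

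Short motifs of lymphoid factors were then matched on both strands in the 200 bp around each peak midpoint. GGGAA, the core that Ikaros recognises, was in 43.9% of member peaks in replicate 1 and 49.4% in replicate 2, against 46.5% and 46.4% of all peaks. TGGGAA, which contains that core, was in 14.4% and 18.2%, against 16.9% and 15.1%. The peaks around the genes that encode Ikaros proteins thus held these letters about as often as other peaks. The TCF/LEF motif CTTTGA was in 17.4% and 19.5% of member peaks, against 13.1% and 12.8%. The RUNX motif TGTGGT was in 20.5% and 19.5%, against 19.2% and 19.1%. E-box letters, which E proteins bind, were in 21.2% and 23.4% as CAGCTG, against 16.9% and 19.6%, and in 25.8% and 31.2% as CACCTG, against 23.9% and 26.3%. The remaining motifs were rarer. The motif of GATA factors, AGATAA, was in 9.09% and 5.19% of member peaks, against 6.55% and 5.79%, and the AP-1 motif TGACTCA in 4.55% and 6.49%, against 4.31% and 4.19%. The SP/KLF motif GGGGCGGGG was in 3.03% and 5.19%, against 4.43% and 6.38%. The ETS motif CCGGAAGT was in 1 peak of each library, at Ikzf5, against 1.41% and 2.28% of all peaks, and the cyclic AMP response element TGACGTCA was in no member peak, against 0.695% and 1.05%. A match is a description of letters and not of binding.

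Some matches coincided with footprints. Of the 83 GGGAA matches in member peaks of replicate 1, 19 (22.9%) touched a footprint, and of the 59 in replicate 2, 14 (23.7%) did, against 23.3% and 23.4% of the matches in all peaks. For TGGGAA the counts were 4 of 20 (20%) and 7 of 15 (46.7%), against 25.5% and 25.7%. The core thus met footprints about as often as in all peaks, and the longer form was below the share of all peaks in replicate 1 and above it in replicate 2. For TGTGGT the counts were 13 of 30 (43.3%) and 6 of 16 (37.5%), against 25.8% and 26.3%, and for CTTTGA 8 of 25 (32%) and 7 of 16 (43.8%), against 25.6% and 32.4%. For CAGCTG they were 11 of 29 (37.9%) and 9 of 19 (47.4%), against 23.0% and 22.1%, and for CACCTG 11 of 36 (30.6%) and 8 of 26 (30.8%), against 25.4% and 23.0%. Those 4 motifs had a higher share in member peaks than in all peaks in both libraries, from few matches, and no test was made. Since 71 of the 77 replicate 2 member peaks overlap a replicate 1 peak, the libraries count largely the same letters. All peaks were not matched to member peaks by density, and the median density percentile of member peaks was 61.7 in replicate 1 and 65.6 in replicate 2. In the printed sequences, which show the plus strand for Ikzf1, Ikzf3 and Ikzf4, a TGTGGT match on the minus strand of the Ikzf1 upstream site begins at position 165, counted from 1 at the 5′ end. A CTTTGA match on the minus strand of the Ikzf3 downstream site begins at position 116, and another in the Ikzf4 intronic site at position 36. Each of these 3 matches touched a footprint in both libraries. The other matches in the printed sequences did not. GGGAA matches in the Ikzf1 and Ikzf2 sites touched no footprint in either library, and that in the Ikzf3 site touched 1 in replicate 2 alone. A TGTGGT match in the Ikzf4 site touched no footprint in either library.

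Genes that work with Ikaros proteins were largely open too. Of 17 subunits of NuRD and other corepressors, 17 had a promoter peak in both libraries, against the 61.7% and 55.1% of all genes. Their territories held a median of 1.70 and 1.12 peaks per 10 kb in replicates 1 and 2. By the mean of the libraries, Mta3, a NuRD subunit, had the most peaks, 29 and 24, followed by the corepressor gene Sin3b with 26 and 23. In replicate 1 alone the NuRD genes Chd3, Chd4 and Mta1 had more, at 33, 31 and 31. The deacetylase gene Hdac2 had the fewest by the mean, 5 and 6, and Rbbp4, Ctbp1 and Ctbp2 tied for the next place with 6.50 on average. In replicate 2 alone Rbbp4 and Ctbp1, with 4 each, and Ctbp2 and Rbbp7, with 5 each, were below Hdac2. Of the cereblon ligase, which destroys Ikaros and Aiolos in human cells treated with lenalidomide, 4 of 5 subunit genes were open in each library. The exception was the X-linked scaffold gene Cul4b. Ddb1, its adaptor, had the most peaks in each library, 21 and 10. By the mean Cul4a came next, with 7 and 8, and the fewest were at Crbn, the substrate receptor, with 7 and 3, and Rbx1, the RING subunit, with 10 and 3. In replicate 1 alone Rbx1 came next after Ddb1, and in replicate 2 it tied with Crbn for the fewest.

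Of 16 genes described as Ikaros targets in lymphocytes, 14 had a promoter peak in each library, against 61.7% and 55.1% of all protein-coding genes. Igll1, a pre-B-cell receptor gene, and the cell cycle inhibitor gene Cdkn1a had none in replicate 1, and Cdkn1a and Il2ra, a cytokine receptor gene, had none in replicate 2. By the mean of the libraries, the territories with the most peaks were those of Cd8a, a co-receptor gene, with 54 and 20 peaks, and Rag2, a recombinase gene, with 60 and 13. Replicate 1 carried that ranking, and in replicate 2 Dntt, the terminal transferase gene, with 29, and Cd4, with 25, had more. The fewest in each library were at Il7r, the interleukin-7 receptor gene, with 6 and 3, and Igll1 with 7 and 6. The median of the list was 2.58 and 1.30 peaks per 10 kb, against 0.836 and 0.424 over all genes. Cd8a, Rag2, Cd4, Rag1 and Ptcra are also on the thymocyte marker list, so the lists are not separate evidence.

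Each member was also paired with the protein-coding gene of similar territory length nearest to it over 6 values: peaks, footprints and bases below a false discovery rate of 0.05 in each library, as log2 of the value plus 1. Ikzf1 was closest to Rnf157, which had 45 and 29 peaks, and Ikzf3 to Agrp, with 42 and 24. Ikzf2 was closest to Grhl2, with 20 and 10 peaks, and Ikzf4 to Ctf2, with 14 and 9. Ikzf5 was closest to Pstk, with 4 and 4, whose territory overlaps its own and so holds some of the same peaks. The distances were 0.240, 0.316, 0.292, 0.152 and 0.267 in the order of genes just given.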

How the data were processed

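DNase-seq peaks, footprints and false discovery rates were analysed as deposited, for 1 library from each of 2 mice. Per the deposited notes, each file came from 1 library's own filtered alignment on mm10, and nothing was pooled. The sources used here do not give the aligner, the callers, their versions or the read depth. The density per peak is a signal made by the authors with an unstated scaling, so it served only to rank peaks within a list. The deposited q-values (false discovery rates of the cut rate) list only runs below 0.05. Every peak of the longer of the 2 deposited lists per library, the main list, touched such a base. The deposited footprints carry 1 constant value, and only their positions were used.

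Gene models were GENCODE M21 on GRCm38, the build called mm10, and letters came from the RefSeq copy of that build. A peak counted for a territory it touched and was classed by its midpoint. Overlap meant at least 1 bp. No test or p-value was computed, since 1 group of 2 libraries has no contrast. Percentiles are over 21938 protein-coding genes or over the peaks of 1 list. Members, lists and motifs were chosen with earlier results of these data known. Genes other than members were named by a rule: coding genes in a territory, the nearest gene in 6 values, and the list genes with the most and fewest peaks. Genes lacking a promoter peak, Gm11999, Gm12000, Gm26876 and list genes that led or trailed in 1 library alone were named after their values were seen. Peaks named were those at starts and up to 4 others per gene with the highest mean percentile. RefSeq promoter entries were found for 2 of 5 members, all equal to the genome. The code was tested on simulated data, with 0 differences in 500 interval queries and 300 sequences. Python 3.11.15, numpy 2.4.6, pandas 2.3.3, pysam 0.24.0 and matplotlib 3.10.9 were used.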

Additional observations from a re-analysis of the deposited data

How the results depend on the processing

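Averaged over the libraries, the 5 territories held 104.5 peaks. The count was 64.5 with the gene body alone and 64.0 when only peaks whose nearest coding start is that of the member were kept, against 76.0 with the shorter lists, 75.5 with the denser 50% of peaks and 84.5 with 10 kb flanks. Footprints averaged 348.5, or 173.5 in gene bodies alone, and bases below a false discovery rate of 0.05 averaged 37954.5, or 19313.5 in gene bodies alone. The gene bodies alone cover less DNA. By nearest start Ikzf3 kept 10.5 peaks and Ikzf5 kept 0. With 1 library left out at a time, the totals ranged from 77 to 132 peaks, from 259 to 438 footprints and from 26773 to 49136 bases, and the open promoters stayed at 5. With the shorter lists Ikzf1 lacked a peak within 1 kb of its gene start in replicate 2, which made the mean 4.5. The share of replicate 2 peaks met in replicate 1 was 83.1% when overlap of 50% of both peaks was required and 96.5% with the shorter lists. No paired analysis was possible because the libraries form 1 group and no groups were compared. Precision is limited by n = 2 and by unstated read depth.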

Other observations

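Past the 3′ end of Ikzf2, replicate 1 alone had 3 adjoining peaks, chr1:69513281-69513380, chr1:69513381-69513680 and chr1:69513701-69514020, at density percentiles 17.0, 20.8 and 21.8, where the antisense transcript Gm29114 begins. Replicate 2 had no peak in that flank. Past the 3′ end of Ikzf1, both libraries had a pair of peaks, chr11:11788541-11788700 and chr11:11788801-11788980 in replicate 1, at 88.4 and 89.1, with counterparts at 55.1 and 59.3 in replicate 2. They lie 15.7 and 16.0 kb beyond Ikzf1, within Fignl1. In the Ikzf4 territory, the peak chr10:128612761-128612920, 18.0 kb past the gene end, was at 88.2 in replicate 1 and, as its counterpart, at 52.8 in replicate 2.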
